A study of Mus musculus with 17 samples.

Results

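The GIMAP proteins (GTPases of immunity-associated proteins) are guanine nucleotide-binding proteins of lymphocytes, encoded side by side on mouse chromosome 6. The 8 mouse genes examined here are Gimap1, Gimap3, Gimap4, Gimap5, Gimap6, Gimap7, Gimap8 and Gimap9, and every array probe annotated to one of these symbols was taken. The annotation lists 12 of the table's 45281 probes, for 7 of the 8 genes. It lists none for Gimap3, which was not analysed here. CD8 T cells in 4 states, from 2 to 6 month old OT-I mice on a C57Bl/6 background, were measured on 17 Illumina bead arrays. OT-I mice carry a transgenic T cell receptor for an ovalbumin peptide, so all groups share one antigen specificity. LSEC-primed cells (4 samples, numbers 4, 7, 14 and 15) came from coculture with liver sinusoidal endothelial cells, and 3 of them are also labelled Tpm, the partial memory cells of the series title. Teff (5 samples, numbers 6, 8, 10, 16 and 17) were effector cells activated by dendritic cells from spleen, although sample 8 names spleen as its source. Memory cells (3 samples, numbers 3, 5 and 9) were spleen cells isolated 3 months after a Listeria monocytogenes infection with ovalbumin (OVA) as antigen, and naive cells (5 samples, numbers 1, 2, 11, 12 and 13) came from spleen. Whether replicates were separate animals or cultures is not labelled, and p-values therefore measure only sample-to-sample spread, which may be technical.

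GIMAP proteins bind GTP through a shared domain, and several sit on the membranes of organelles such as the endoplasmic reticulum, lysosomes and lipid droplets. The family is best known for keeping resting lymphocytes alive: loss of Gimap5 causes a severe lack of T cells in rats and mice, and mature T and B cells are lost in mice without Gimap1. Levels below are normalised log2 intensities of single probes, so values of one probe can be compared between samples but not with values of another probe. A difference of 1 on this scale is a doubling of normalised intensity. That intensity includes an added offset of 50, which makes the folds of dim probes smaller. A probe was called where limma's adjusted p, taken over all 35237 probes fitted, was under 0.05. In bulk RNA, fewer expressing cells and less RNA per cell cannot be told apart.

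Of the 12 probes, 8 lay above background on every array, covering Gimap1, Gimap5, Gimap6, Gimap7, Gimap8 and Gimap9. Background was the level below which an array's dim probes fall. The Gimap4 probes exceeded it on 6 and on 1 of the 17 arrays, and a pair of further Gimap8 probes on 0 of 17, so little can be said of Gimap4 transcripts at this signal. In all, 11 of the 12 probes passed the filter on dim probes and were fitted. Arrays differed in brightness, with a mean intensity of 140.2 on memory sample 3 and 96.74 on memory sample 5, against 226.7 to 471.1 on all others. On memory sample 5, 16.5% of probes were above background, and the CD8 T cell markers made up 0.129% of total intensity, against 0.291% to 0.449% elsewhere. The called differences of single Gimap probes in memory over naive cells are therefore also given without those samples. T cell genes were bright in all groups: Cd8b1, a CD8 coreceptor chain, averaged 13.95 ± 0.17 in LSEC-primed, 13.16 ± 0.12 in Teff, 14.36 ± 0.06 in memory and 14.04 ± 0.16 in naive cells (SD, n = 4, 5, 3 and 5). The Cd8a probe was above background on 0 of 5 Teff and 0 of 5 naive arrays.

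Relative to naive cells, 3 of the 11 fitted probes were called in LSEC-primed cells (2 higher, 1 lower), while 11.1% of all fitted probes were called (6.07% higher, 5.03% lower). In Teff, 6 of 11 were called (1 higher, 5 lower) against 20.8% of all probes (10.4% in each direction). In memory cells, 6 of 11 were called (5 higher, 1 lower) against 10.4% of all probes (4.63% higher, 5.74% lower). The family did not move as a block. Gimap7 was higher and Gimap6 lower in all 3 antigen-experienced groups, whereas Gimap5, Gimap8 and Gimap9 were lower in Teff and, by at least 1 probe each, higher in memory cells. Under median scaling of the arrays the memory differences were -0.02 for Gimap7, -0.49 for Gimap8, -1.11 for Gimap9 and 0.08 for the called Gimap5 probe, and none of these was called. The falls in Teff of Gimap8, Gimap9 and Gimap5 probe ILMN_2643096 were also no longer called, nor was that of Gimap6 in LSEC-primed cells. On every array the median lay below the background level, so this scaling lines arrays up by dim probes and not by bright ones.

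**Figure D1:**
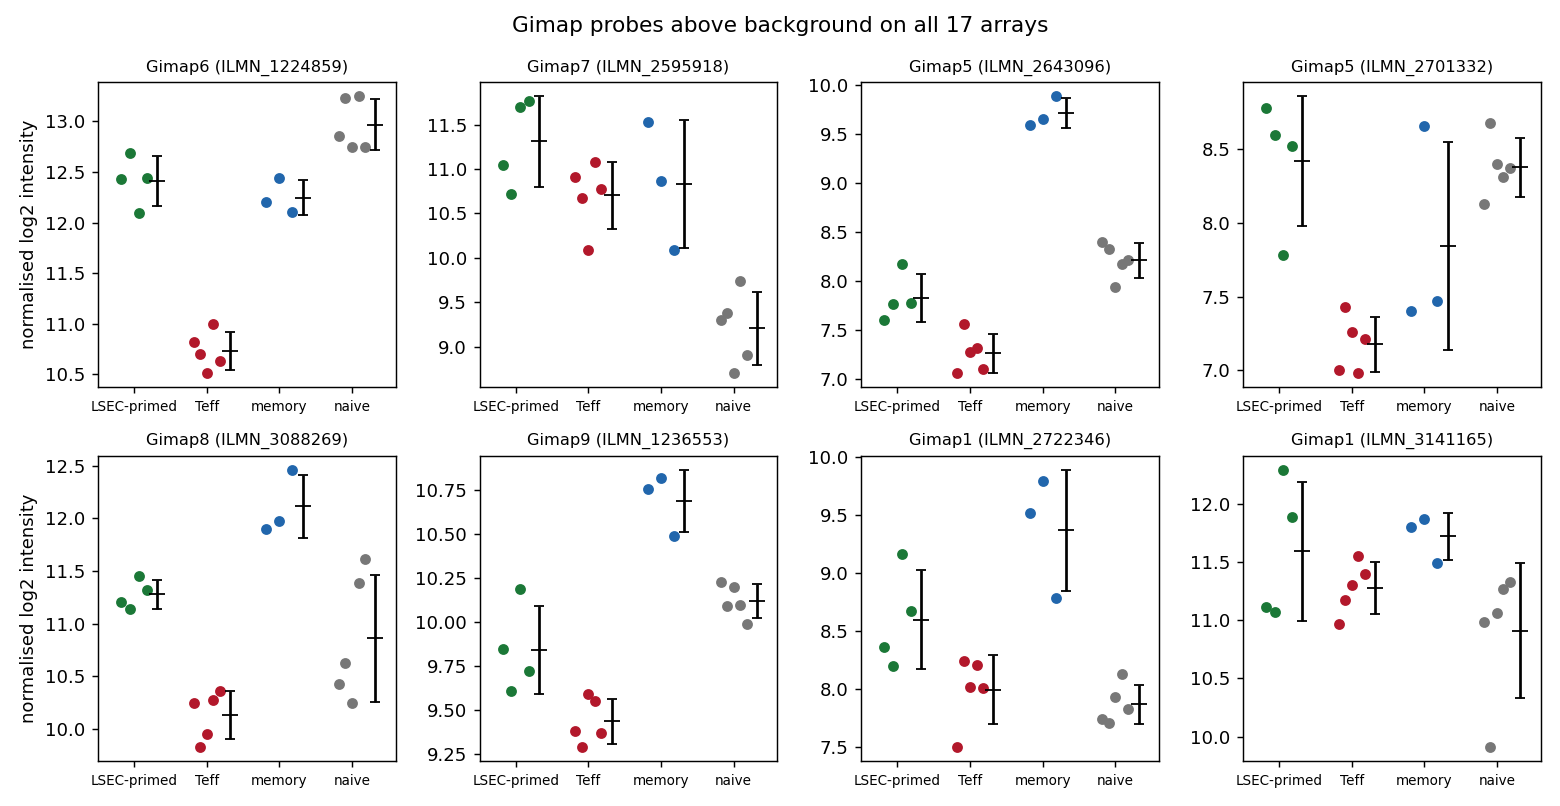
Normalised log2 intensity (vertical axes, a separate scale per panel) of the 8 probes above background on all 17 arrays. Points are samples in number order within the LSEC-primed, Teff, memory and naive groups, and bars are mean ± SD (n = 4, 5, 3 and 5). Gimap6 in the 5 Teff samples sits between 10.51 and 11, below every other sample, and Gimap7 in the 5 naive samples sits between 8.7 and 9.74, below every other sample.

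Gimap6, whose product binds the autophagy protein GABARAPL2, had the largest fall over naive of the fitted Gimap probes after quantile normalisation, in Teff. In LSEC-primed samples 4, 7, 14 and 15 it had log2 intensities of 12.43, 12.69, 12.09 and 12.44. In Teff samples 6, 8, 10, 16 and 17 it had 10.82, 10.7, 10.51, 11 and 10.63. In memory samples 3, 5 and 9 it had 12.2, 12.44 and 12.1, and in naive samples 1, 2, 11, 12 and 13 it had 12.86, 13.23, 12.75, 13.25 and 12.75. No Teff sample overlapped any other group, and all naive samples lay above all LSEC-primed and memory samples. The difference over naive was -2.23 ± 0.13 in Teff (SE, 4.71-fold lower, adjusted p = 2.42e-09) and -0.56 ± 0.14 in LSEC-primed cells (1.47-fold lower, adjusted p = 0.0145). In memory cells it was -0.72 ± 0.15 (1.65-fold lower, adjusted p = 0.00504), -0.87 without samples 3 and 5, -2.45 under median scaling, and -0.47 under cyclic loess, where it was not called (adjusted p = 0.166). The LSEC-primed call did not hold without LSEC-primed sample 14 (-0.45, adjusted p = 0.0595) or under median scaling (-0.46, adjusted p = 0.765). Gimap6 was highest in naive and lowest in Teff after quantile normalisation, where LSEC-primed over memory cells was 0.16 (adjusted p = 0.607). Under median scaling LSEC-primed over memory cells was 1.99 (adjusted p = 0.017) and memory cells over Teff -0.5 (adjusted p = 0.536), so the place of memory cells in this order depends on the scaling.

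Gimap7, a GTPase whose activity depends on pairing with another GIMAP molecule in the human protein, moved the other way. Its log2 intensities were 11.05, 10.72, 11.7 and 11.77 in LSEC-primed samples 4, 7, 14 and 15. They were 10.91, 10.67, 10.09, 11.08 and 10.77 in Teff samples 6, 8, 10, 16 and 17. They were 11.53, 10.86 and 10.09 in memory samples 3, 5 and 9, and 9.3, 9.38, 8.7, 9.74 and 8.9 in naive samples 1, 2, 11, 12 and 13. Every antigen-experienced sample was above every naive sample, and the 3 antigen-experienced groups overlapped one another. Over naive the difference was 2.11 ± 0.3 in LSEC-primed cells (SE, 4.3-fold, adjusted p = 0.000118) and 1.5 ± 0.28 in Teff (2.83-fold, adjusted p = 0.000636). It was 1.62 ± 0.32 in memory cells (3.08-fold, adjusted p = 0.00294), but 0.88 without memory samples 3 and 5 and -0.02 under median scaling. LSEC-primed cells and Teff did not differ beyond the threshold (0.61, 95% interval -0.02 to 1.23, adjusted p = 0.257).

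Because Gimap6 and Gimap7 were read on the same arrays, a scale factor common to an array cancels in their difference, apart from the effect of the added offset. Gimap7 minus Gimap6, set to a mean of 0 in naive cells, was 2.66 ± 0.71 in LSEC-primed, 3.73 ± 0.23 in Teff and 2.34 ± 0.68 in memory cells, against 0 ± 0.22 in naive cells (SD, n = 4, 5, 3 and 5). In each comparison with naive cells the groups did not overlap. The exact permutation p was 0.00794 for LSEC-primed cells and for Teff and 0.0179 for memory cells, each the smallest that these sample numbers allow, and the adjusted p over 63 pairs was 0.0238, 0.0238 and 0.0352. The memory value was 2.43 under median scaling and 1.75 on memory sample 9 alone, while the separate memory values of Gimap7 and Gimap6 were -0.02 and -2.45.

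**Figure D2:**
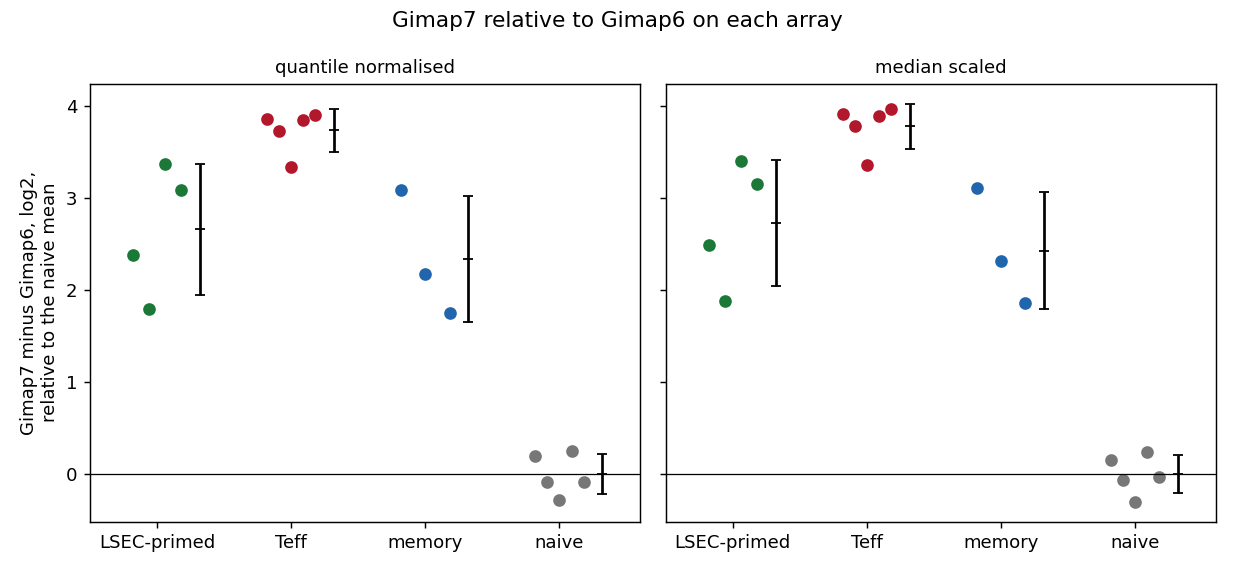
Gimap7 minus Gimap6 on each array (vertical axis, log2, naive mean set to 0), after quantile normalisation (left) and median scaling (right). Points are samples and bars mean ± SD. The 12 antigen-experienced arrays lie between 1.75 and 3.9 after quantile normalisation, and the 5 naive arrays between -0.28 and 0.25.

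The 250 bases before the annotated starts of this oppositely moving pair, and of Gimap1, which shares a motif with Gimap7, are shown here from RefSeq (GRCm38.p6), 5′ to 3′ on the gene's strand. Capitals mark TGTGGT, the core letters of RUNX motifs, read on the opposite strand as ACCACA.
Gimap6, chr6:48708245-48708494, minus strand: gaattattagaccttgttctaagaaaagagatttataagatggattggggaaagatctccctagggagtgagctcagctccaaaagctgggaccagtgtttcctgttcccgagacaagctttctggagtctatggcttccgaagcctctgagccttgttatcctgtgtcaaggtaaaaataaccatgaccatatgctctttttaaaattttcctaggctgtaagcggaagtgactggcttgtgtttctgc
Gimap7, chr6:48718371-48718620, plus strand: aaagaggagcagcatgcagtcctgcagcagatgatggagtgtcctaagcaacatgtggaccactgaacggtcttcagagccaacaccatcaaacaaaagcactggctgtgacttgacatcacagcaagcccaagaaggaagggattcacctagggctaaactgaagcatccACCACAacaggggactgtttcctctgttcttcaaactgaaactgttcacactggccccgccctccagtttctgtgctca
Gimap1, chr6:48738797-48739046, plus strand: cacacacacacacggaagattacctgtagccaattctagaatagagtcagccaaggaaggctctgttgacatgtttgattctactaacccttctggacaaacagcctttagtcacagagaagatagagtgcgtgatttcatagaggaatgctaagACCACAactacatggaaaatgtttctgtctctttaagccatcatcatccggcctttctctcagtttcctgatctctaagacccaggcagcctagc
RUNX factors are transcription factors of the T cell lineage. The motif lay 79 to 74 bases before the start of Gimap7, 95 to 90 before that of Gimap1 and 145 to 140 before that of Gimap4. On either strand it is present in 14% of the 32851 windows of this length, so such a match is common. Letters for ETS (CCGGAAG, in 6.91% of windows), TCF/LEF (CTTTGAA in 4.46% and CTTTGAT in 3.21%) and KLF (GGGTGTG, 6.93%) were in none of the 8 genes' windows. FOXO letters (TGTTTAC, 3.17% of windows) were in that of Gimap3 alone. A match is a description of letters and not a binding site.

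Gimap5, the lysosomal member needed for T cell survival, was read by a pair of probes annotated to the same transcript. Probe ILMN_2643096 had log2 intensities of 7.6, 7.77, 8.18 and 7.78 in LSEC-primed samples 4, 7, 14 and 15. It had 7.06, 7.56, 7.28, 7.32 and 7.1 in Teff samples 6, 8, 10, 16 and 17. It had 9.6, 9.66 and 9.89 in memory samples 3, 5 and 9, and 8.4, 8.33, 7.94, 8.18 and 8.22 in naive samples 1, 2, 11, 12 and 13. Memory samples lay above and Teff below all naive samples. Probe ILMN_2701332 had 8.78, 8.6, 7.78 and 8.52 in the LSEC-primed samples, 7, 7.43, 7.26, 6.98 and 7.21 in Teff, 7.4, 8.66 and 7.47 in memory, and 8.13, 8.68, 8.4, 8.31 and 8.37 in naive samples. On this probe memory samples 3 and 9 lay below the naive range, and memory sample 5 lay within it.

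On both probes Gimap5 was lower in Teff than in naive cells, by -0.95 ± 0.12 (SE, adjusted p = 1.42e-05; -0.66 and adjusted p = 0.378 under median scaling) and -1.2 ± 0.22 (adjusted p = 0.000564). On both it was higher in LSEC-primed cells than in Teff, by 0.57 (adjusted p = 0.00579) and 1.24 (adjusted p = 0.00134), the first not called under cyclic loess (0.53, adjusted p = 0.0823) or median scaling (0.38, adjusted p = 0.775). Neither probe was called in LSEC-primed over naive cells (-0.38, adjusted p = 0.0705, and 0.04, adjusted p = 0.972). In memory over naive cells the probes disagreed, at 1.5 ± 0.14 (adjusted p = 1.76e-06) for ILMN_2643096 and -0.54 ± 0.25 (adjusted p = 0.217) for ILMN_2701332. The disagreement of 2.04 had an exact permutation p of 0.0179, the smallest possible, and an adjusted p of 0.0686 over 12 such tests. Without memory samples 3 and 5 the probes gave 1.67 and -0.91, and under median scaling 0.08 (adjusted p = 0.956) and -1.43 (adjusted p = 0.00443). Without memory sample 5 alone, ILMN_2701332 was -0.95 (adjusted p = 0.00906). It was called lower in 2 of 19 alternatives.  The reference table gives Gimap5 as an older name of Gimap3, and whether a probe also reads Gimap3 RNA was not tested.

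Gimap8, which unlike other members carries several GTP-binding domains, had log2 intensities of 11.21, 11.14, 11.45 and 11.32 in LSEC-primed samples 4, 7, 14 and 15 by probe ILMN_3088269. It had 10.25, 9.83, 9.95, 10.28 and 10.36 in Teff samples 6, 8, 10, 16 and 17. It had 11.9, 11.98 and 12.46 in memory samples 3, 5 and 9, and 10.43, 10.63, 10.25, 11.39 and 11.61 in naive samples 1, 2, 11, 12 and 13. Memory samples lay above all others, LSEC-primed samples lay above all Teff, and naive samples were spread over both ranges. Gimap8 was higher in LSEC-primed cells than in Teff by 1.15 ± 0.23 (SE, 2.22-fold, adjusted p = 0.00268; 1 and adjusted p = 0.436 under median scaling). Over naive it was -0.73 ± 0.22 in Teff (adjusted p = 0.0251) and 0.42 ± 0.23 in LSEC-primed cells (adjusted p = 0.369). The Teff call did not hold without Teff sample 8 or 10 or naive sample 12 or 13 (-0.65, -0.68, -0.6 and -0.54, adjusted p 0.0625 to 0.0771) or under median scaling (-0.45, adjusted p = 0.718). In memory over naive cells it was 1.25 ± 0.26 (adjusted p = 0.00362), 1.6 without memory samples 3 and 5, -0.49 under median scaling, and not called when only these groups were fitted (adjusted p = 0.0514).

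Gimap9, like Gimap8, was highest in memory cells and lowest in Teff after quantile normalisation, with a smaller range. Its log2 intensities were 9.85, 9.61, 10.19 and 9.72 in LSEC-primed samples 4, 7, 14 and 15, and 9.38, 9.29, 9.59, 9.55 and 9.37 in Teff samples 6, 8, 10, 16 and 17. They were 10.76, 10.82 and 10.49 in memory samples 3, 5 and 9, and 10.23, 10.09, 10.2, 10.1 and 9.99 in naive samples 1, 2, 11, 12 and 13. Teff and naive samples did not overlap, and all memory samples lay above all others. The difference over naive was -0.69 ± 0.1 in Teff (SE, adjusted p = 7.96e-05; -0.4 and adjusted p = 0.626 under median scaling) and -0.28 ± 0.11 in LSEC-primed cells (adjusted p = 0.134). Gimap9 was higher in LSEC-primed cells than in Teff by 0.41 ± 0.11 (adjusted p = 0.0192), a call that did not hold without LSEC-primed sample 14 (0.29, adjusted p = 0.0651), without Teff sample 8 (0.37, adjusted p = 0.0518) or under median scaling (0.21, adjusted p = 0.885). It was also lost under cyclic loess (adjusted p = 0.0589) and with a robust, trended prior (adjusted p = 0.0715). In memory over naive cells it was 0.57 ± 0.12 (adjusted p = 0.00455), 0.37 without memory samples 3 and 5, 0.35 under cyclic loess (adjusted p = 0.103) and -1.11 under median scaling.

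Gimap1, needed for the survival of mature lymphocytes, was also read by a pair of probes. Probe ILMN_2722346 had log2 intensities of 8.36, 8.2, 9.17 and 8.67 in LSEC-primed samples 4, 7, 14 and 15. It had 7.5, 8.24, 8.02, 8.21 and 8.01 in Teff samples 6, 8, 10, 16 and 17. It had 9.52, 9.8 and 8.79 in memory samples 3, 5 and 9, and 7.74, 7.71, 7.93, 8.13 and 7.83 in naive samples 1, 2, 11, 12 and 13. All LSEC-primed and memory samples lay above all naive samples. Over naive the difference was 0.73 ± 0.21 in LSEC-primed cells (SE, adjusted p = 0.0355) and 1.5 ± 0.23 in memory cells (adjusted p = 0.000359). The LSEC-primed call did not hold without LSEC-primed sample 14 or 15 or any 1 of the 5 naive samples other than sample 12 (0.54 to 0.75, adjusted p 0.06 to 0.134), without background correction (0.58, adjusted p = 0.0532) or under median scaling (0.83, adjusted p = 0.35). The memory value was 0.92 without memory samples 3 and 5 and 0.08 under median scaling. In Teff it was 0.13 ± 0.2 (adjusted p = 0.815).

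The other Gimap1 probe, ILMN_3141165, was called in none of the 6 comparisons, with unadjusted p of 0.0263 in LSEC-primed over naive and 0.017 in memory over naive cells. It averaged 11.59 ± 0.6 in LSEC-primed, 11.27 ± 0.22 in Teff, 11.72 ± 0.2 in memory and 10.91 ± 0.58 in naive cells (SD, n = 4, 5, 3 and 5). Its differences over naive were 0.68 ± 0.28, 0.36 ± 0.26 and 0.81 ± 0.3 (SE) in LSEC-primed, Teff and memory cells, in the same direction as those of the first probe. Gimap4, which in mice hastens the death of T cells already committed to apoptosis, stayed near background, its probes spanning 6.08 to 7.16 and 5.8 to 7.92, the last on memory sample 5, against 6.11 and 5.87 on memory samples 3 and 9. Neither was called in any of the 6 comparisons, with 3 of 12 tests at an unadjusted p under 0.05 (limma).

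**Figure D3:**
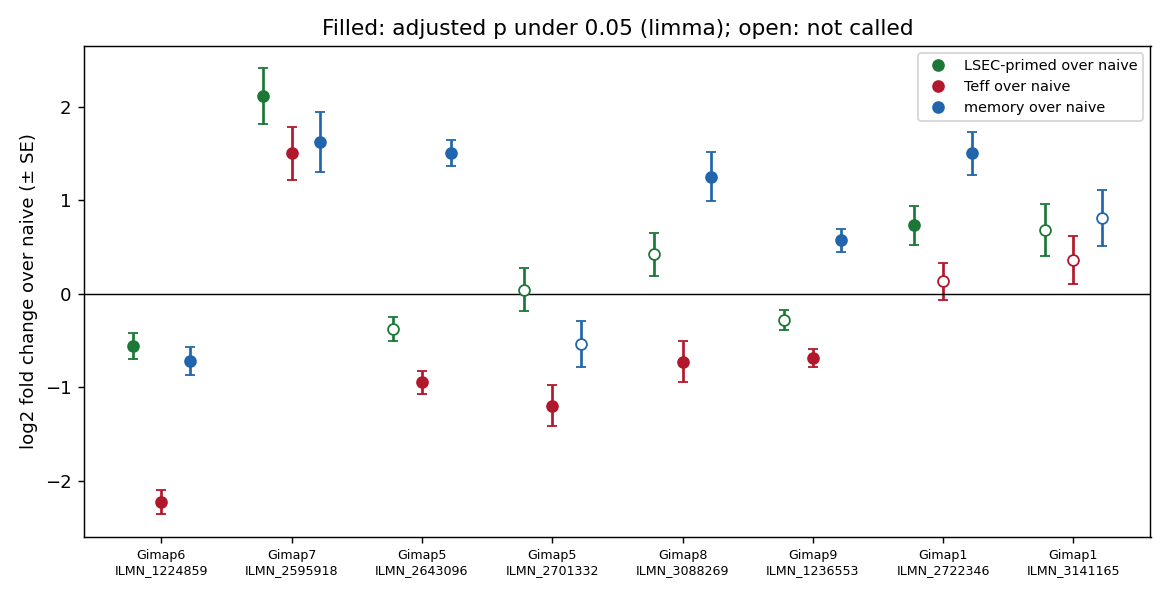
Log2 fold change over naive (vertical axis, ± SE) of the same 8 probes in LSEC-primed, Teff and memory cells. Filled points passed adjusted p under 0.05 and open points did not. Gimap7 is above 0 and Gimap6 below 0 in all 3 groups, although Gimap7 in memory cells is -0.02 under median scaling, and the Gimap5 probes part in memory cells (1.5 and -0.54).

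Set directly against each other, 5 of 11 probes were higher in LSEC-primed cells than in Teff and 0 lower, against 12.6% of all fitted probes called (6.36% higher, 6.19% lower). The 5 were Gimap6 (1.68 ± 0.14, SE, 3.2-fold, adjusted p = 4.27e-07; 1.49 and adjusted p = 0.0543 under median scaling), both Gimap5 probes, Gimap8 and Gimap9. Under cyclic loess 3 were called and under median scaling 1, ILMN_2701332 of Gimap5. LSEC-primed cells were lower than memory cells in 2 of 11 probes, against 10.9% of all probes called (6.33% higher, 4.55% lower). These were Gimap5 probe ILMN_2643096 (-1.88 ± 0.15, adjusted p = 3.65e-07) and Gimap9 (-0.85 ± 0.12, adjusted p = 0.000241), which under median scaling were -0.36 and 0.93. Memory cells were higher than Teff in 5 of 11 probes, against 20.1% of all probes called (9.32% higher, 10.8% lower). The values were 2.45 for ILMN_2643096 of Gimap5, 1.98 for Gimap8, 1.52 for Gimap6, 1.38 for ILMN_2722346 of Gimap1 and 1.25 for Gimap9. Under median scaling they were 0.74, -0.04, -0.5, -0.37 and -0.72. Without memory samples 3 and 5, which leaves memory sample 9 alone, ILMN_2722346 of Gimap1 was 0.79 in memory cells over Teff.

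**Figure D4:**
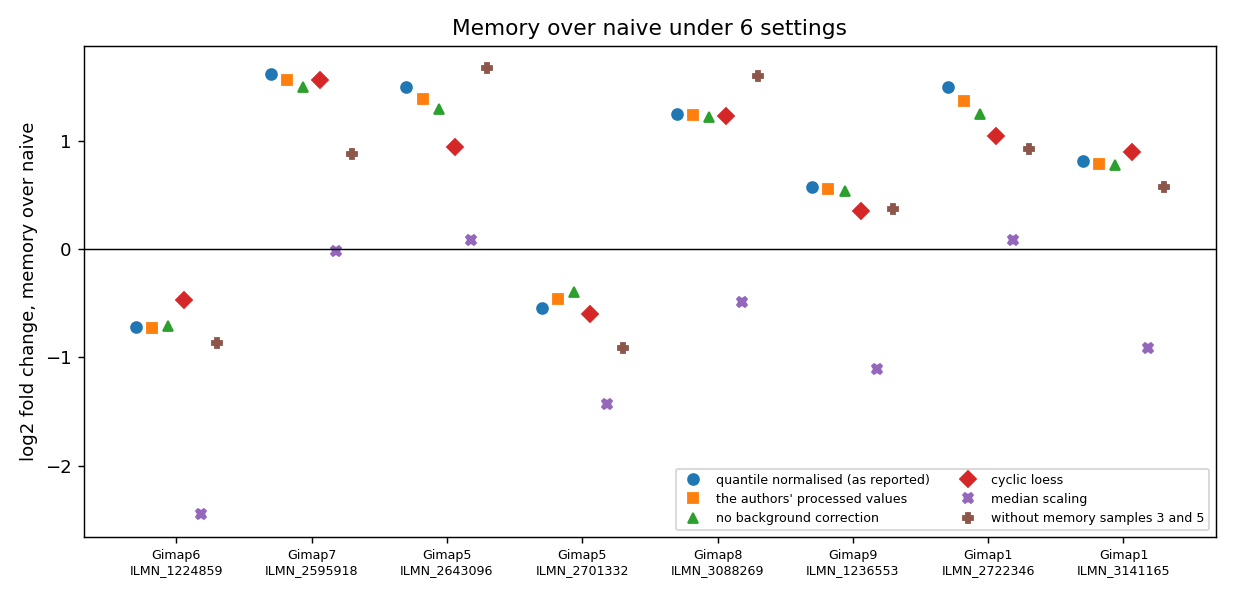
Log2 fold change of memory over naive cells (vertical axis) for the 8 probes under 6 settings. Crosses for median scaling lie below every other setting, at -0.49 for Gimap8 and -1.11 for Gimap9, while Gimap6 is below 0 under all 6.

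To ask whether members differ in response, each gene was represented by its brightest probe on average and all 21 pairs were compared in each group by an exact two-sided permutation test over samples. Of 63 pairs, 35 differed after adjustment over all 63, with 9 of 21 in LSEC-primed, 17 of 21 in Teff and 9 of 21 in memory cells. Pairs of genes outside the family were not tested, so whether this share is particular to the family is not known. With 1 sample left out the 35 became 13 to 36, with 13 without naive sample 1 or 2, 14 without naive sample 12, 15 without naive sample 11 and 23 without any 1 memory sample. Fewer samples also leave fewer arrangements, and the part of this in the falls was not tested. Leaving out Gimap4, which was near background, 24 of 45 differed, and 21 of them did so under all 4 other scalings (6 in LSEC-primed, 12 in Teff and 3 in memory cells). Gimap5 entered the pairs and the profiles below by ILMN_2643096, at 1.5 in memory over naive cells against -0.54 by its other probe. The memory pair of Gimap5 and Gimap6 (2.22), among those 3, rests on ILMN_2643096. Gimap8 and Gimap9 differed least in Teff, with a difference in response of -0.04 (exact permutation p = 0.921). Over all 17 arrays, Gimap5 and Gimap9 had the most alike centred profiles (root mean square difference 0.463) among pairs without Gimap4, and Gimap6 and Gimap7 the least alike (1.528).

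Centred and averaged over its 7 measured genes, the family stood at 0.22 ± 0.17 in LSEC-primed, -0.48 ± 0.11 in Teff, 0.68 ± 0.14 in memory and -0.1 ± 0.17 in naive cells (SD over samples, n = 4, 5, 3 and 5). Under median scaling these means were 0.48 ± 0.34, -0.06 ± 0.42, -0.63 ± 1.22 and 0.06 ± 0.41, so memory cells turned from the highest group to the lowest. Median scaling lines arrays up at a level below background, and memory samples 3 and 5 were the dimmest arrays. Memory sample 9, the brighter one, stood at 0.53 after quantile normalisation and 0.55 under median scaling. Gimap5 enters this mean by ILMN_2643096, with which the other Gimap5 probe disagreed in memory cells. Each member set against the mean of the other members, Gimap9 was nearest (root mean square difference 0.312) and Gimap7 farthest (1.026). Of 16455 other named genes, those nearest to the mean of all 7 over 17 arrays were Ccnq (0.161), Lasp1 (0.165), Bahd1 (0.185), Plgrkt (0.197), Atp6ap1 (0.202) and Zfp664 (0.203). Lasp1, an actin-binding protein, averaged 12.24 ± 0.2 in LSEC-primed, 11.35 ± 0.16 in Teff, 12.59 ± 0.23 in memory and 11.85 ± 0.17 in naive cells. These likenesses are descriptions over arrays that share groups and quantile normalisation.

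In the reference gene table the order along the chromosome is Gimap8, Gimap9, Gimap4, Gimap6, Gimap7, Gimap1, Gimap5 and Gimap3, with Gimap6 and Gimap3 on the minus strand. Gimap6 and Gimap7 are thus neighbours, although they moved oppositely. Of the 12 measured genes beside the cluster, 2 were higher in LSEC-primed, 2 in Teff and 1 in memory than in naive cells, and 0 were lower. Over all fitted probes, 11.1%, 20.8% and 10.4% were called in these comparisons (6.07%, 10.4% and 4.63% higher). Repin1, a zinc finger protein gene, was higher by 1.27 ± 0.16 in LSEC-primed cells (SE, adjusted p = 4.28e-05) and 1.49 ± 0.15 in Teff (adjusted p = 1.17e-06). In LSEC-primed cells over Teff 3 of the 12 were higher and 0 lower, against 12.6% of all fitted probes called. All lay on the Gimap3 side: Tmem176b (2.17 ± 0.4, adjusted p = 0.00108), Tmem176a (0.71 ± 0.15, adjusted p = 0.00409) and Gpnmb (2.38 ± 0.63, adjusted p = 0.017). Whether they share a cause with the Gimap genes was not tested.

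**Figure D5:**
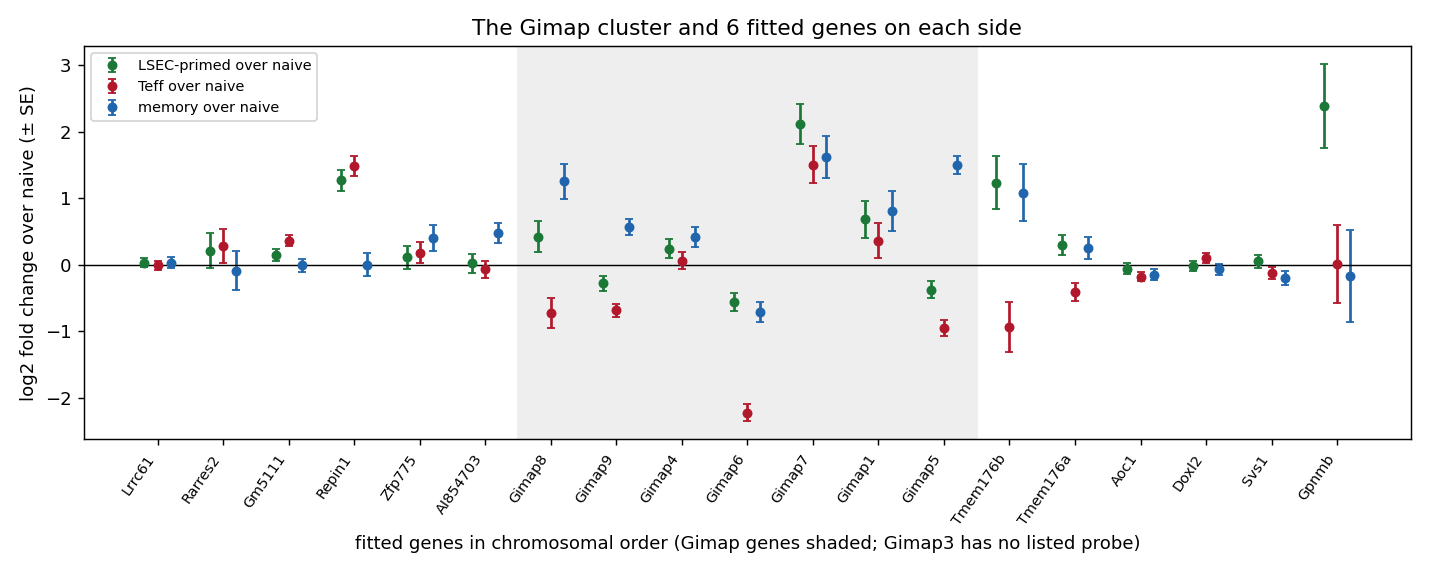
Log2 fold change over naive (vertical axis, ± SE) of the 7 measured Gimap genes (shaded, highest-mean probe) and 12 neighbouring genes, in chromosomal order (horizontal axis, not to scale). The neighbours Gimap6 and Gimap7 lie on opposite sides of 0 in all 3 groups, at -2.23 and 1.5 in Teff. In memory cells both are below 0 under median scaling, at -2.45 and -0.02.

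Genes of naive T cell quiescence and homing, the programme that keeps resting T cells circulating through lymphoid organs, were lower for most members in LSEC-primed cells and Teff and for 8 of 20 in memory cells. Of 20 measured, 14 were lower and 0 higher in LSEC-primed cells (median -0.8), 14 lower in Teff (median -1.11) and 8 lower in memory cells (median -0.41), while the median of all probes was -0.003, -0.008 and -0.003. Klf2, a transcription factor of resting T cells, was -2.77 ± 0.35 in LSEC-primed cells and -5.31 ± 0.33 in Teff (SE, adjusted p = 4.64e-05 and 4.74e-09). Il7r, the receptor chain for the survival cytokine IL-7, was -1.65 ± 0.25 and -0.93 ± 0.23 in the same groups (adjusted p = 2e-04 and 0.00687). Cell division genes were higher in 6 of 11 in LSEC-primed cells, 10 of 11 in Teff and 0 of 11 in memory cells (limma, 2 at an unadjusted p under 0.05), with Aurkb, a mitotic kinase, at 1.41 and 4.08 in LSEC-primed cells and Teff. Over all fitted probes, 6.07%, 10.4% and 4.63% were called higher in LSEC-primed, Teff and memory cells, and 5.03%, 10.4% and 5.74% lower.

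Of 6 measured survival and autophagy genes linked to GIMAP proteins, 0 were called in LSEC-primed over naive cells by limma, with 1 at an unadjusted p under 0.05. Bcl2, the anti-apoptotic protein reported to bind Gimap5, was 0.83 ± 0.25 in Teff (SE, adjusted p = 0.0256), -0.66 ± 0.27 in LSEC-primed cells (adjusted p = 0.156) and 0.54 ± 0.29 in memory cells (adjusted p = 0.282). Bcl2l11, which encodes the pro-apoptotic protein Bim, was lower in Teff (-1.43 ± 0.24, adjusted p = 0.000284) and memory cells (-1.19 ± 0.28, adjusted p = 0.0105). Gabarapl2, the partner of Gimap6, was -0.04, -0.53 and -0.02 in LSEC-primed, Teff and memory cells and was not called. Another family of GTPases, those induced by interferon, was higher in 6 of 15 and lower in 1 in LSEC-primed cells, with Igtp at 2.14 ± 0.24 (adjusted p = 1.12e-05). Over all fitted probes, 6.07% were higher and 5.03% lower in LSEC-primed over naive cells.

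Markers of other cells moved with some groups. Of 13 measured endothelial markers, 8 were higher and 0 lower in LSEC-primed over naive cells, against 6.07% and 5.03% of all fitted probes. The summed intensity of these markers was 0.0407% to 0.0675% of the array total in LSEC-primed, 0.0163% to 0.0197% in Teff, 0.0106% to 0.0248% in memory and 0.0108% to 0.0134% in naive samples. As intensities the sums were 1088 to 1467 in memory and 1223 to 2012 in naive samples. The share of 0.0248% was on the dim memory sample 5, where the sum was 1088. Igfbp7 averaged 11.6 ± 0.32 in LSEC-primed and 6.17 ± 0.11 in naive cells (SD, n = 4 and 5), and Kdr and Clec4g were above background on 0 of 4 LSEC-primed arrays. Summed myeloid and dendritic cell markers reached 0.0221% of the total on LSEC-primed sample 14, against 0.00565% to 0.00763% on the other LSEC-primed samples. Summed erythroid markers were 0.00236% to 0.0033% of the total in LSEC-primed and 0.00206% to 0.00336% in Teff samples. They were 0.0194% to 0.0477% in memory and 0.0314% to 0.174% in naive samples, which overlap, and 0 of 4 were called between memory and naive cells (limma, 2 at an unadjusted p under 0.05). Over all fitted probes, 10.4% were called in memory over naive cells (4.63% higher, 5.74% lower). Of 4 NK cell markers 2 were higher in memory cells. Their sums were 0.00628% to 0.00894% of the total in memory and 0.00232% to 0.00327% in naive samples. As intensities the sums were 391.5 to 756.7 in memory and 338.5 to 421.7 in naive samples, which overlap. Of 6 B cell markers 1 was higher in memory cells. The summed B cell markers were 0.00599% to 0.0122% of the total in memory and 0.00411% to 0.0058% in naive samples, which do not overlap. In intensity these B cell sums were 534.3 to 722.5 in memory and 595.6 to 778.6 in naive samples, which overlap. A share also rises where the array total is low, so these shares alone do not show more B cell signal in memory samples. The part of these other cells in the Gimap values was not tested.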

How the data were processed

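RNA of the 17 samples was labelled as biotin cRNA, per the labels' protocols, and measured on Illumina mouse bead arrays. Per the file headers, 1 table deposited by the authors gives non-normalised intensity per probe. The other is a table of intensity that, read from its values, the authors had quantile normalised on the linear scale. Software for image analysis is not given in the sources used here, and 3 further columns of other samples were not used. The table holds no detection p-values or control probes. Samples were grouped by their titles. The number of arrays per group, 3 to 5, limits the precision.

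In limma 3.58.1 (R 4.3.3), the non-normalised intensity was corrected with normexp (offset 50), then quantile normalised and taken as log2. Each probe above its array's median on at least 3 arrays was fitted by itself, 35237 in all, in 1 model with a mean per group (residual df 13, prior df 3.07) and Benjamini-Hochberg adjustment. Probes were named through the platform annotation of 2016, where 34885 probes have 1 symbol, 18 have several and 10378 have none. Background was an array's mode plus 3 SD of its lower side. For genes beside the family, the brightest probe on average was used. Pairs were tested by exact permutation over samples (scipy 1.17.1). Promoter windows and gene order came from RefSeq (GRCm38.p6); the array files name no build. Alternatives were median scaling, cyclic loess, the authors' values, omitting the background correction, a stricter filter or none, a trended robust prior, array weights, only the 2 groups compared and each sample left out. Leaving out memory samples 3 and 5, a filter on probes above background and the tests between probes of a gene were added after seeing the data. The fit was tested on simulated data. The planned comparison of protein sequences was not run.

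All probes of the members were reported, with 6 genes nearest in profile, 6 genes on each side of the cluster and up to 4 of each list. The members and lists were chosen with earlier results of these data known.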

Additional observations from a re-analysis of the deposited data

Results flagged for a closer look

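The 12 probes were examined in the LSEC-primed, Teff and naive groups, and not in the memory group, whose 3 samples are too few for this criterion. In 2 of these 36 sets of a probe and a group, 1 sample stood apart from the others of its group by Dixon's criterion at the 95% level, which chance alone gives in about 1 of 20 sets. For Gimap1 probe ILMN_3141165, naive sample 2 had a log2 intensity of 9.91, against 10.98 to 11.33 in the other naive samples. For Gimap8 probe ILMN_1224195, which was not above background on any array, LSEC-primed sample 7 had 5.82, against 6.14 to 6.19 in the other LSEC-primed samples.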

How the results depend on the processing

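Over 1272 values of single Gimap probes under alternatives, 539 concerned called results, of which 494 stayed called in the same direction, 37 were no longer called and 8 reversed. All 8 reversals, and 1 of an uncalled result, came under median scaling and involved memory cells: over naive Gimap7 -0.02, Gimap8 -0.49 and Gimap9 -1.11; LSEC-primed over memory Gimap9 0.93; over Teff Gimap1 -0.37, Gimap6 -0.5, Gimap7 -1.85 (called), Gimap8 -0.04 and Gimap9 -0.72. Of the values not called, 32 came to be called. Median scaling called 1 Gimap probe in LSEC-primed over naive, 3 in Teff over naive, 2 in memory over naive (both lower), 1 in LSEC-primed over Teff, and 1 in memory over Teff (lower). In LSEC-primed over memory it called 3, all higher, against 2 lower as reported. Cyclic loess called 3 in LSEC-primed over Teff. In LSEC-primed over memory the stricter filter, the filter on probes above background and leaving out memory sample 9 each called 4. The counts of values above include leaving out memory samples 3 and 5, which leaves memory sample 9 alone and no spread within that group. The cause of these changes was not tested. With 1 sample left out, called probes numbered 2 to 3 for LSEC-primed over naive, 5 to 6 for Teff over naive, 6 to 8 for memory over naive, 4 to 6 for LSEC-primed over Teff, 2 to 4 for LSEC-primed over memory and 5 to 8 for memory over Teff (8 without memory sample 9). Pairs that differed numbered 13 to 36: 13 without naive sample 1 or 2, 15 without 11, 14 without 12, and 23 without any 1 memory sample. Fewer samples also leave fewer arrangements to permute, and the part of this in the falls was not tested. Over all probes, calls numbered 1327 (LSEC-primed over naive), 4650 (Teff over naive) and 2115 (LSEC-primed over Teff) under median scaling, against 3911, 7337 and 4423 as reported. For memory over naive and LSEC-primed over memory, reported at 3653 and 3837, they numbered 2054 and 1638 under cyclic loess, 2412 and 2457 with array weights, and 2390 and 1376 with only the groups compared. No paired analysis was made because the labels used here give no pairing of samples between groups.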
